A study of Mus musculus with 8 samples.

Results

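Cytochrome P450 genes encode haem enzymes that oxidise lipids, sterols, vitamins and foreign chemicals, and the 42 of them that were analysed here are described in a mouse embryonic liver cell line with and without forced expression of the transcription factor GRHL2. The members were all the genes whose symbol has the form of a mouse P450 gene (Cyp, a family number, a subfamily letter and a gene number), which selected 42 of the 18671 genes, with no measured value used in the choice. They comprised 15 genes of subfamilies known for foreign chemicals, 10 for fatty acids, 8 for sterols and steroids, 5 for vitamins A and D, and 4 others. BMEL cells are a bipotential line from embryonic mouse liver, able to take a hepatocyte or a bile duct fate, and the 4 pIGrhl2 samples were compared with 4 pcDNA samples. The pIGrhl2 cells received a plasmid with the human GRHL2 cDNA, fused to a Flag tag and driven by the EEF1A1 promoter, which also encodes enhanced green fluorescent protein. The pcDNA cells received the pcDNA3 vector, so the plasmids differed by more than GRHL2. Both groups were grown in RPMI medium with serum, IGF-II, EGF and insulin on collagen, transfected with JetPrime and harvested after 48 h. All samples come from one cell line, and the numbers 1 to 4 name independent biological replicates per the study's legend. RNA was measured in bulk, so fewer cells expressing a gene and less RNA per cell cannot be told apart.

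P450 enzymes of the endoplasmic reticulum take electrons from P450 oxidoreductase, encoded by Por, with help from cytochrome b5, and those of mitochondria take them from ferredoxin and its reductase. In adult liver the xenobiotic enzymes of families CYP1, CYP2 and CYP3 clear drugs and toxins under control of receptors such as AHR, PXR and CAR, whereas the sterol enzymes convert cholesterol into bile acids. Retinoic acid is removed by the CYP26 enzymes. Calcitriol, the active form of vitamin D, is made by CYP27B1 and inactivated by CYP24A1.

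Among these genes, Cyp26a1 had the largest rise and Cyp1a1 was the one called lower, and their upstream sequences are shown because both belong to pathways in which a receptor is known to bind close to the gene. The sequences are the 250 bases before the RefSeq start on GRCm38.p6, 5′ to 3′. That of Cyp26a1 lies at chr19:37697558-37697807 (plus strand). That of Cyp1a1 lies at chr9:57697363-57697612 (plus strand), and its capitals mark the core letters of the element bound by the AHR complex. The capitals in Cyp26a1 mark a direct repeat of the kind bound by retinoic acid receptors, read on the minus strand.
Cyp26a1: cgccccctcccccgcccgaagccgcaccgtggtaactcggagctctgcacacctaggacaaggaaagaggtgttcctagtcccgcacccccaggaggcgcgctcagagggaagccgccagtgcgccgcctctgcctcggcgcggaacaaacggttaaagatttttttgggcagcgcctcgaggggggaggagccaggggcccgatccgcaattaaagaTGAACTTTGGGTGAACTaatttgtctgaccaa
Cyp1a1: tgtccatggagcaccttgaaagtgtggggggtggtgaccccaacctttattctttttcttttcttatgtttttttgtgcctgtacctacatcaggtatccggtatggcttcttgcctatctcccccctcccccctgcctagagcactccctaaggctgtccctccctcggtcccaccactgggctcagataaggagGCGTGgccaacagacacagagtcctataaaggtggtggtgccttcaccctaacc

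RefSeq promoters, here the 250 bases before to 50 after a start, were matched by symbol for 34 of the 42 members (40 promoters), and 3 motifs were searched on both strands. The direct repeat, spelled as AGNTCA, then 5 bases of any kind, then AGNTCA again, occurred in 0.204% of 32851 mouse promoters of this length. Cyp26a1 was the only member with it, at 32 bases before the start. The core letters GCGTG occurred in 32.4% of all promoters and in 10 of the 40 member promoters, that of Cyp1a1 being 54 bases before the start. The promoter of Cyp46a1, a member called higher below, held 4 of them, at 190, 120, 89 and 24 bases before the start. The GRHL motif AACCNGTT occurred in 2.09% of all promoters and in none of the 34 member genes. The motifs do not overlap in the 2 promoters shown, and a match describes letters and not binding.

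The values deposited by the authors are rlog values (the regularized logarithm of DESeq2, on a log2 scale) less the log2 of transcript length, and they are called levels below. The depth of each sample is unknown. The rlog pulls the samples of a gene with few reads together, so both the differences and the spreads at low genes are understated. The Grhl2 row, a check of the labels, was between 5.65 and 6.96 in the pIGrhl2 samples and between 4.42 and 4.68 in the pcDNA samples. The plasmid cDNA is human and reads were mapped to the mouse genome, so how far this row measures the plasmid is unknown. Deviations from the group means correlated between the groups within replicates 1 and 2 and within replicates 3 and 4 (Pearson's r across genes 0.345 to 0.645) and went against each other across these sets (-0.611 to -0.399). The labels name no batch, and differences within each set are given beside some of the results. Of the hepatoblast markers, Hnf4a had a level of 11.16, Afp of 8.22, Alb of 5.22, Ttr of 4.95 and Apoa1 of 3.89. Alb, Ttr and Apoa1 were below the median gene at 6.45. Of the biliary markers, Krt19 had a level of 15.13 and Krt7 of 13.01. Limma called 2 of the 5 biliary markers higher in the pIGrhl2 samples, against 10.5% of all genes, Krt7 by 0.44 and Epcam by 1.75 on the log2 scale (adjusted p = 0.00201 and 4.59e-07). Their summed level was 15.59 to 15.68 there against 15.19 to 15.48. Of 5 hepatoblast markers 1, Afp, was lower, against 5.91% of all genes, and the summed levels overlapped at 11.25 to 11.46 against 11.32 to 11.45. With the replicate number as a block, all 5 biliary markers were called higher, against 18.2% of all genes. The haematopoietic marker Ptprc had a level of 0.89 and was not called. No analysed marker of endothelial, macrophage or stellate cells was called without the block, and 1 of each list was higher with it. These were Kdr, Cd68 and Col1a1, at levels of 2.38, 6.17 and 5.28. The part of these marker shifts in the P450 results was not tested.

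Most of the P450 genes were weakly expressed in these cells, and Cyp1a2, Cyp2e1 and Cyp8b1, known from adult hepatocytes, were near the lower limit. A gene was marked as near the lower limit when its mean level, with transcript length added back, was under 3.32, the log2 of 10 reads. This held for 23 of the 42 members (54.8%), against 27.5% of the 18428 genes with a known length. Cyp2t4 lay just under the limit at 3.22 and Cyp4v3 just above it at 3.64. Only 8 members were above the level of the median gene. GENCODE M21 annotates 94 protein-coding genes with such symbols, and those analysed here were 15 of 45 xenobiotic, 10 of 25 fatty acid, 8 of 12 sterol and steroid, 5 of 6 vitamin and 4 of 6 other genes. Cyp2r1, Cyp3a11, Cyp7a1 and Cyp7b1 were not analysed here.

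**Figure D1:**
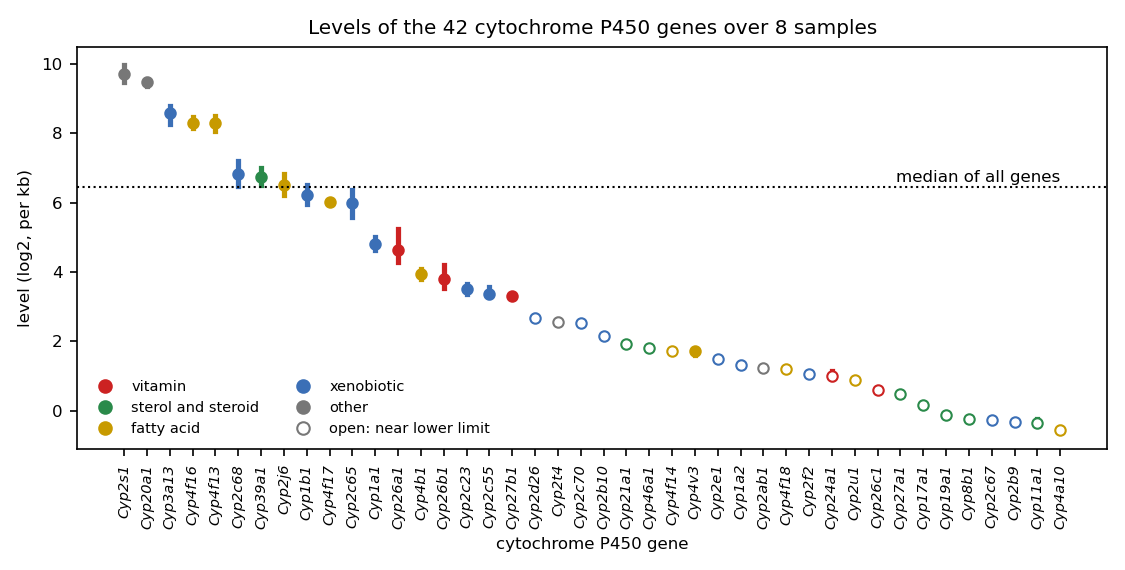
Mean level (log2 per kb of transcript) of each of the 42 cytochrome P450 genes over all 8 samples, with bars from the lowest to the highest sample, colours by class and open symbols for genes near the lower limit. Levels run from 9.72 for Cyp2s1 to -0.57 for Cyp4a10, and 8 genes lie above the dotted median of all genes at 6.45.

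The highest level was that of Cyp2s1 (9.72), an enzyme known from epithelia outside the liver. It was followed by Cyp20a1 (9.48), whose substrate is not established. Next came Cyp3a13 (8.59), a mouse gene of the drug-metabolising CYP3A subfamily. The fatty acid and leukotriene hydroxylase genes Cyp4f16 and Cyp4f13 were both at 8.30. The last 3 members above the median gene were Cyp2c68 (6.81), Cyp39a1 (6.74) and Cyp2j6 (6.50). In contrast, Cyp2e1, the ethanol-inducible enzyme of adult hepatocytes, had a level of 1.50 and was near the lower limit. So was Cyp8b1, the hydroxylase needed for cholic acid, at -0.23. Cyp27a1, the mitochondrial sterol hydroxylase of bile acid synthesis, was at 0.47. The lowest level was that of Cyp4a10 (-0.57), a fatty acid hydroxylase gene controlled by PPARA.

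To determine which P450 genes differed between the groups, all 18671 genes were fitted with limma, with Benjamini-Hochberg adjustment over all of them. Limma called 3 of the 42 P450 genes higher in the pIGrhl2 samples (7.14%), against 10.5% of all genes, and these were Cyp26a1, Cyp24a1 and Cyp46a1. It called 1 lower (2.38%), Cyp1a1, against 5.91% of all genes. In this fit both shares were below those of all genes, and no test of this was made. With the replicate number as a block, 6 members were higher (14.3%), against 18.2% of all genes, and 3 were lower (7.14%), against 13.9%. The median log2 fold change was 0.013 over the members and 0.0066 over all genes. All 4 pIGrhl2 samples lay above all 4 pcDNA samples at 7 members (16.7%), against 14.3% of all genes, and below them at 1 (2.38%), against 9.47%. Of these 7 members, 6 were near the lower limit. Over the whole table, genes near the limit were called higher in 11.9% and lower in 0.849% of cases, against 10.0% and 7.86% above it. Of the 23 members near the limit, 2 were called higher (8.70%) and 0 lower, and of the 19 above it 1 was called in each direction (5.26%). With the samples set to an equal upper quartile, 9 members were called higher (21.4%), which was above the 16.4% of all genes. With an equal sum 5 were (11.9%), below the 15.6% of all genes. Cyp1a1 was the member called lower under both, against 5.21% and 4.65% of all genes.

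**Figure D2:**
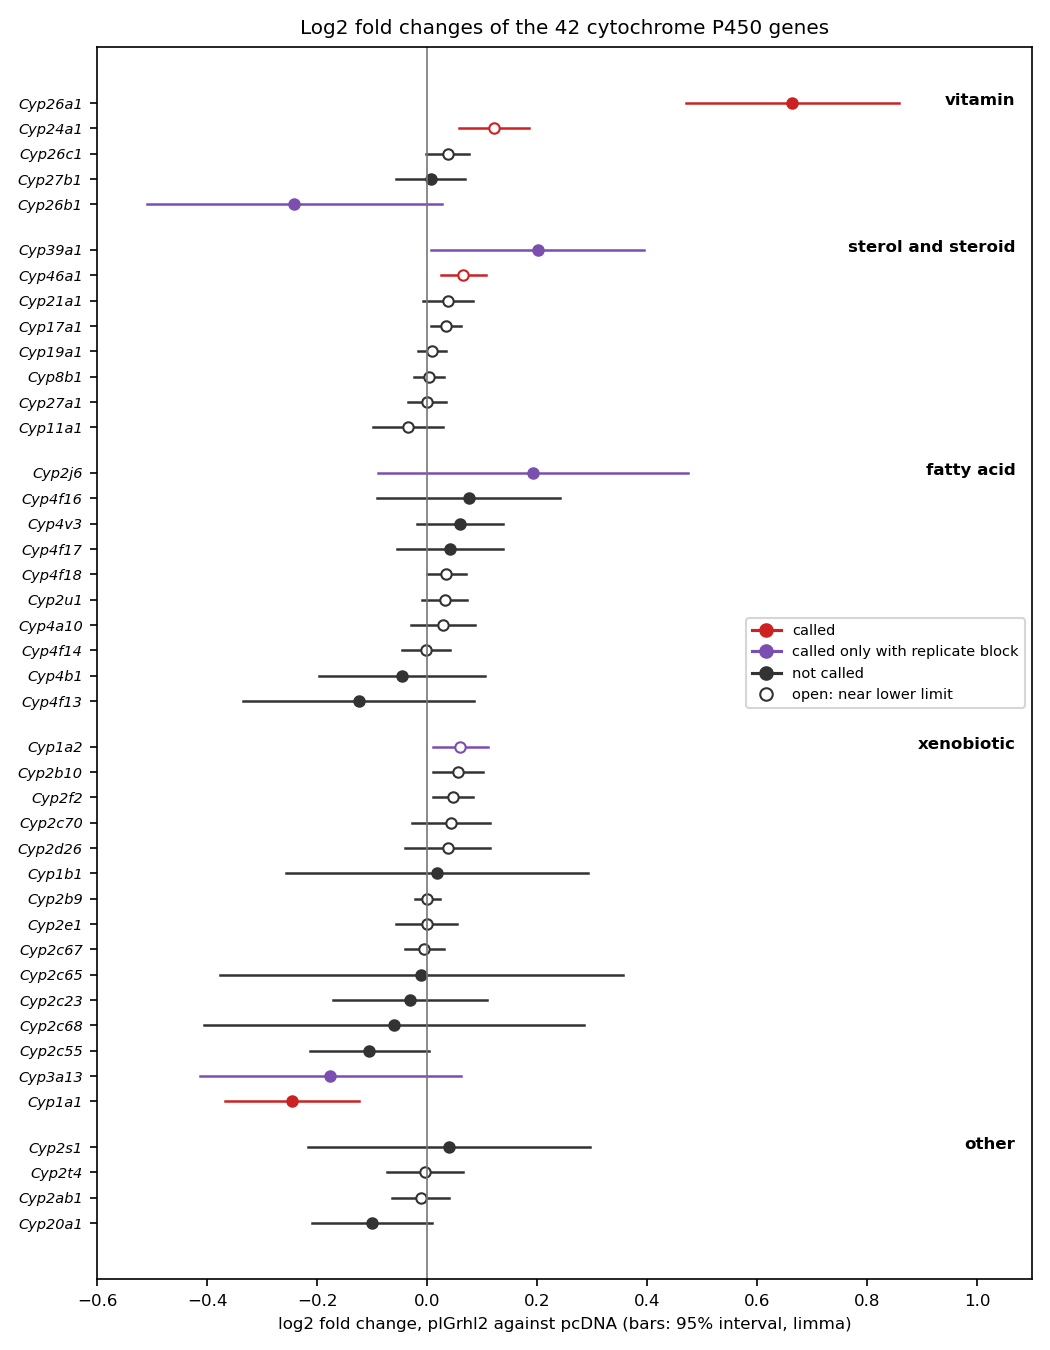
Log2 fold change, pIGrhl2 against pcDNA, of each of the 42 cytochrome P450 genes by class, with the 95% interval from limma as bars and open symbols for genes near the lower limit. Red marks the 4 genes called at an adjusted p under 0.05, purple the 5 called only with the replicate block; Cyp26a1 at 0.66 lies furthest from 0 and the other called genes lie between -0.25 and 0.12.

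The largest difference among the 42 genes was that of Cyp26a1, which clears retinoic acid and rose, while its close relative Cyp26b1 had lower values in each pair of samples. Cyp26a1 (GRCm38 chr19:37697798-37701536, plus strand) had levels of 5.01, 5.24, 4.91 and 4.74 in pIGrhl2 replicates 1 to 4 and of 4.31, 4.37, 4.28 and 4.28 in the pcDNA replicates. The groups did not overlap, and the lowest pIGrhl2 sample was replicate 4. The means were 4.97 ± 0.21 and 4.31 ± 0.041 (SD, n = 4 each), a log2 fold change of 0.66 (standard error 0.087, limma adjusted p = 0.00104), or 58.5% higher on this scale. The difference was 0.78 within replicates 1 and 2 and 0.55 within replicates 3 and 4. An exact two-sided permutation test gave p = 0.0286, the smallest that 4 against 4 samples can give.

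Cyp26b1, which also hydroxylates retinoic acid, had levels of 3.73, 3.94, 3.55 and 3.53 in the pIGrhl2 samples and of 4.04, 4.20, 3.71 and 3.75 in the pcDNA samples. The groups overlapped and replicates 1 and 2 were the highest of each group, but each pIGrhl2 sample was below the pcDNA sample of the same number. The log2 fold change was -0.24 (95% interval -0.51 to 0.027, limma adjusted p = 0.204), whereas the fit with the replicate block called it (adjusted p = 0.0011). Leaving out single samples moved the log2 fold change between -0.32 and -0.15. The difference was -0.29 within replicates 1 and 2 and -0.19 within replicates 3 and 4. Cyp26c1, the third gene of the subfamily, lies 4399 bases from Cyp26a1. It was near the lower limit at 0.62 ± 0.024 in the pIGrhl2 and 0.59 ± 0.028 in the pcDNA samples, and was not called (limma adjusted p = 0.188) except with an equal upper quartile.

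**Figure D3:**
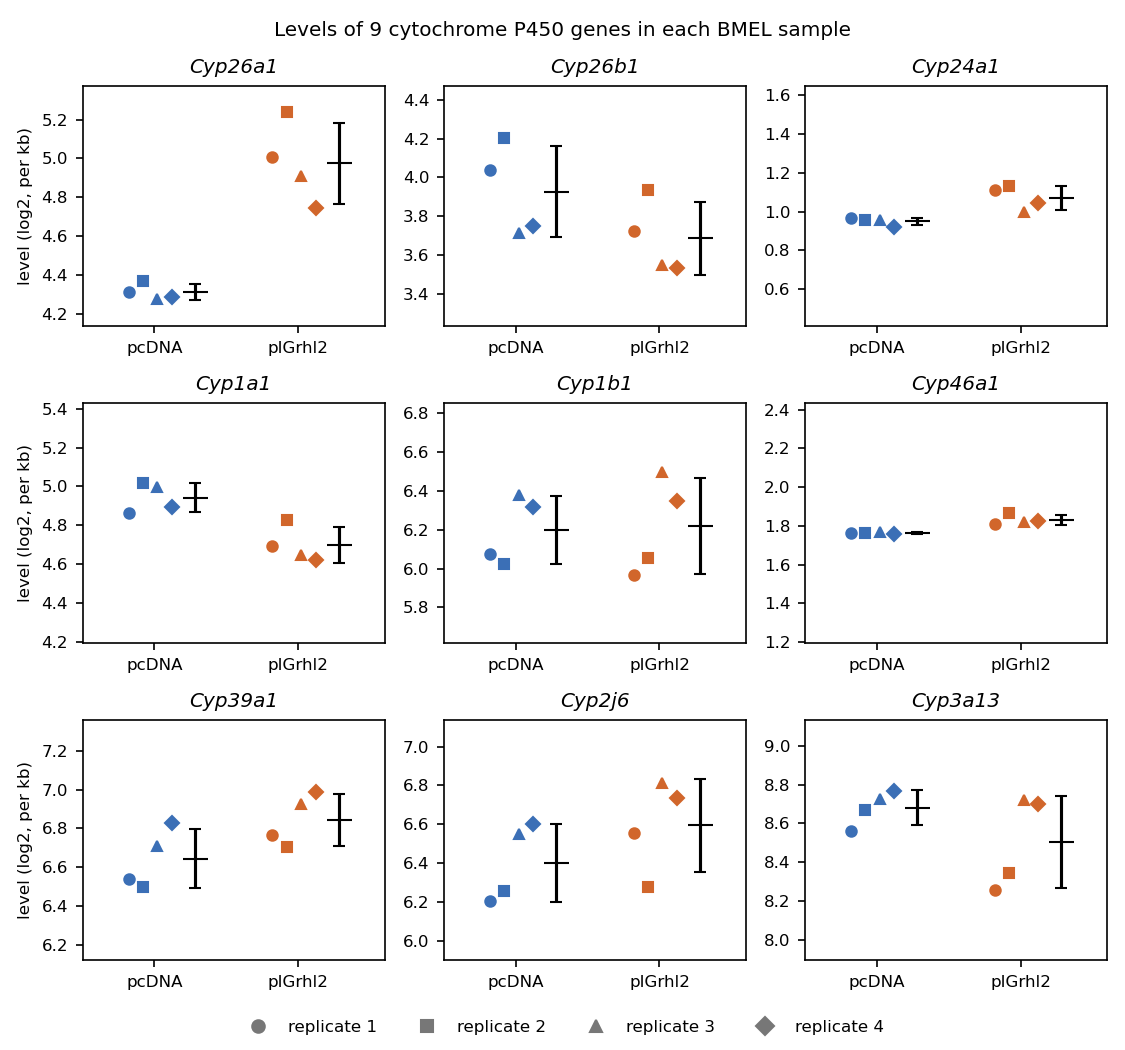
Level (log2 per kb of transcript) of 9 cytochrome P450 genes in each of the 8 samples, with a symbol for each replicate number and bars for the mean ± SD of 4 samples; every panel spans the same range. The 4 pIGrhl2 samples of Cyp26a1 sit between 4.74 and 5.24, above all pcDNA samples, and those of Cyp1a1 between 4.62 and 4.83, below all pcDNA samples.

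Of the vitamin D enzymes, the inactivating one was higher and the activating one showed little difference. Cyp24a1 (chr2:170482708-170497145) had levels of 1.11, 1.14, 0.996 and 1.04 in the pIGrhl2 samples and of 0.965, 0.957, 0.957 and 0.922 in the pcDNA samples. The groups did not overlap, and replicates 1 and 2 of pIGrhl2 were the highest. The log2 fold change was 0.12 (standard error 0.028, limma adjusted p = 0.0179), with 0.16 within replicates 1 and 2 and 0.081 within replicates 3 and 4. The gene was near the lower limit and overlaps the more abundant Pfdn4 (level 9.42, log2 fold change -0.11) on the opposite strand, and reads were counted without strand. Without pIGrhl2 replicate 1 the adjusted p was 0.0508. Cyp27b1, which makes calcitriol, had levels of 3.30 ± 0.038 and 3.29 ± 0.026, and the 95% interval of its log2 fold change was -0.056 to 0.070.

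Sterol and steroid enzymes were mostly near the lower limit, with Cyp39a1 as the only member above it among 8. Cyp39a1, an oxysterol hydroxylase of a minor bile acid route, had levels of 6.77, 6.70, 6.93 and 6.99 in the pIGrhl2 samples and of 6.54, 6.50, 6.71 and 6.83 in the pcDNA samples. Replicates 3 and 4 were the highest in both groups, and each pIGrhl2 sample was above the pcDNA sample of its number although the groups overlapped. The log2 fold change was 0.20 (standard error 0.087, limma adjusted p = 0.147), and it was called with the replicate block (adjusted p = 0.00366). The differences within the replicate sets were 0.21 and 0.19.

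Cyp46a1, a cholesterol hydroxylase known from neurons, had levels of 1.81, 1.87, 1.82 and 1.83 in the pIGrhl2 samples against 1.76, 1.77, 1.77 and 1.76. The groups did not overlap but lay close together, and the gene was near the lower limit. Its log2 fold change was 0.066 (standard error 0.018, limma adjusted p = 0.0343). This call depended on nearly every library: it was kept without pIGrhl2 replicate 1 (adjusted p = 0.0440) and lost without any one of the other 7 (adjusted p from 0.0543 to 0.0812). It was also lost without the mean-variance trend (adjusted p = 0.0700) and with replicates 3 and 4 averaged (adjusted p = 0.0961). The other 6 were not called. The aromatase gene Cyp19a1 and Cyp11a1, which starts steroid synthesis from cholesterol, were at or below -0.10 in every sample. Cyp17a1, needed for androgens, had levels of 0.17 ± 0.020 and 0.14 ± 0.00075, and Cyp21a1, an adrenal steroid hydroxylase, of 1.93 ± 0.035 and 1.90 ± 0.0025. At both of these the groups did not overlap, without a call (limma adjusted p = 0.0812 and 0.249), although Cyp17a1 was called with an equal upper quartile. For Cyp27a1 the 95% interval of the log2 fold change was -0.035 to 0.034, and for Cyp8b1 it was -0.025 to 0.030, on a scale that understates differences at such low levels.

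Among the xenobiotic enzymes, Cyp1a1 fell, while Cyp1a2 and Cyp1b1, which AHR is also known to induce, were not called in the same fit. Cyp1a1 (chr9:57687928-57703824 in GENCODE M21, whose model begins before the RefSeq start used for the sequence above), the aryl hydrocarbon hydroxylase gene, had levels of 4.69, 4.83, 4.65 and 4.62 in the pIGrhl2 samples and of 4.86, 5.02, 4.99 and 4.90 in the pcDNA samples. All pIGrhl2 samples were below all pcDNA samples. The log2 fold change was -0.25 (standard error 0.055, limma adjusted p = 0.0143; exact two-sided permutation p = 0.0286, n = 4 each), so that the level decreased by 15.6%. With replicates 3 and 4 averaged and counted as 1 sample the adjusted p was 0.0680. The difference was -0.18 within replicates 1 and 2 and -0.31 within replicates 3 and 4. Cyp1a2, a hepatocyte enzyme whose gene neighbours Cyp1a1, was near the lower limit at 1.35 ± 0.045 and 1.29 ± 0.0092. Its log2 fold change was 0.061 (limma adjusted p = 0.0934), and it was called with the replicate block (adjusted p = 0.0491), with a term for the replicate sets (adjusted p = 0.0348), with either rescaling (adjusted p = 0.0322 and 0.0239) and without pIGrhl2 replicate 3 (adjusted p = 0.0288). Cyp1b1, found mostly outside the liver, had levels of 5.97, 6.06, 6.50 and 6.35 in the pIGrhl2 samples and of 6.08, 6.03, 6.38 and 6.32 in the pcDNA samples. Its highest samples were replicates 3 and 4 of both groups, with a 95% interval of the log2 fold change of -0.26 to 0.29.

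Cyp3a13 had levels of 8.26, 8.34, 8.72 and 8.70 in the pIGrhl2 samples and of 8.56, 8.67, 8.73 and 8.77 in the pcDNA samples. Each pIGrhl2 sample was below the pcDNA sample of its number, by a margin that was wide in replicates 1 and 2 (-0.31) and narrow in replicates 3 and 4 (-0.038). The log2 fold change was -0.18 (limma adjusted p = 0.297), with a call under the replicate block (adjusted p = 0.0486). Leaving out single samples moved it between -0.25 and -0.093. Cyp3a13 overlaps Gm15502 on the same strand, whose log2 fold change was -0.025. The CYP2C genes, whose products oxidise drugs and arachidonic acid, sit in clusters of similar sequence on chromosome 19, so reads may be split between them. The 6 analysed ranged in level from -0.26 for Cyp2c67 to 6.81 for Cyp2c68, and none was called. Without the block, Cyp2c68 had a 95% interval of -0.41 to 0.28, and Cyp2c65 of -0.38 to 0.36. With the block the standard error fell from 0.154 to 0.046 for Cyp2c68 and from 0.164 to 0.067 for Cyp2c65. Neither was called there (limma adjusted p = 0.364 and 0.927). Cyp2b10, the classic CAR target, had pIGrhl2 levels of 2.17 to 2.21 and pcDNA levels of 2.10 to 2.16, which did not overlap, without a call (limma adjusted p = 0.0898). The same held for Cyp2f2, the gene of a naphthalene-oxidising enzyme, with 1.05 to 1.11 against 1.02 to 1.03 (limma adjusted p = 0.0739). Both were called higher with an equal upper quartile, and Cyp2f2 also with an equal sum and without pIGrhl2 replicate 4. Cyp2b9 and Cyp2d26 were near the lower limit and not called. For Cyp2e1 the 95% interval was -0.056 to 0.054.

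Of the 10 fatty acid genes, 0 were called by limma in the fit of the 2 groups alone (0 at an unadjusted p under 0.05), against 10.5% of all genes higher and 5.91% lower, and 1 was called higher with the replicate block, against 18.2%. Cyp2j6, an arachidonic acid epoxygenase gene, had levels of 6.55, 6.28, 6.81 and 6.74 in the pIGrhl2 samples and of 6.21, 6.25, 6.55 and 6.60 in the pcDNA samples. The groups overlapped, but all 4 pairs of the same number were higher with pIGrhl2. The log2 fold change was 0.19 (limma adjusted p = 0.337), and the block brought the adjusted p to 0.0270. Leaving out single samples moved the log2 fold change between 0.12 and 0.30. The Cyp4f genes above the lower limit, whose products end the action of leukotrienes, gave intervals of -0.091 to 0.24 for Cyp4f16, -0.33 to 0.085 for Cyp4f13 and -0.054 to 0.14 for Cyp4f17. Their sequences are also similar to each other. Cyp4b1, which hydroxylates fatty acids and activates some toxins, had an interval of -0.20 to 0.11. Cyp4v3, a fatty acid hydroxylase known from the retina, had one of -0.018 to 0.14. The remaining 4, Cyp2u1, Cyp4a10, Cyp4f14 and Cyp4f18, were near the lower limit and not called, except Cyp4f18 with an equal upper quartile.

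The highest P450 genes of these cells, Cyp2s1 and Cyp20a1, were not called. Cyp2s1 had levels of 9.60, 9.50, 9.90 and 9.95 in the pIGrhl2 samples and of 9.67, 9.48, 9.81 and 9.83 in the pcDNA samples, a log2 fold change of 0.040 (95% interval -0.22 to 0.30). Cyp20a1 had pIGrhl2 levels of 9.35 to 9.53 and pcDNA levels of 9.51 to 9.55, a log2 fold change of -0.10 (limma adjusted p = 0.195). The other two, Cyp2ab1 and Cyp2t4, were near the lower limit and had log2 fold changes of -0.012 and -0.0040.

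Several members above the lower limit differed between the replicate sets in the same direction in both groups. Of the 19 members above the lower limit, 9 had both samples of replicates 3 and 4 above both of replicates 1 and 2 in each group (47.4%), against 17.7% of the 13363 genes above the limit. These were Cyp1b1, Cyp2c65, Cyp2c68, Cyp2j6, Cyp2s1, Cyp39a1, Cyp3a13, Cyp4b1 and Cyp4f16. The difference was widest for Cyp2c65, at 0.62 in the pIGrhl2 and 0.31 in the pcDNA samples, and for Cyp2c68, at 0.43 and 0.45. The opposite order was seen at Cyp26a1, Cyp26b1 and Cyp27b1 (15.8%), against 20.2% of those genes. Cyp26b1 had -0.29 in the pIGrhl2 and -0.39 in the pcDNA samples. These shares are descriptions without a test, and each set holds 2 samples of each group.

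**Figure D4:**
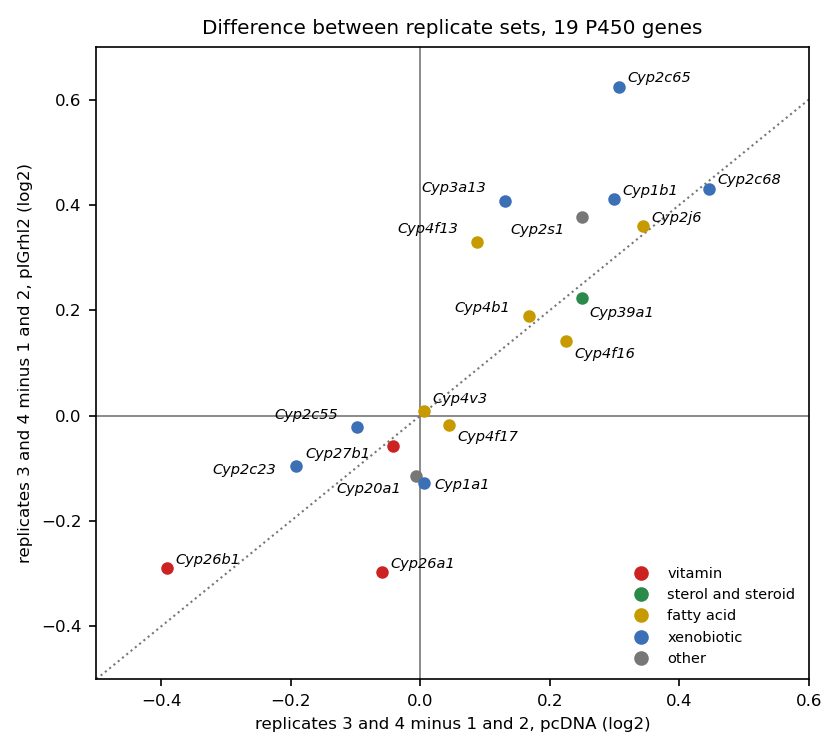
Difference in mean level (log2) between replicates 3 and 4 and replicates 1 and 2, in the pcDNA samples (x axis) and in the pIGrhl2 samples (y axis), for the 19 cytochrome P450 genes above the lower limit, coloured by class; the dotted line marks equal differences. Cyp2c68 at 0.45 and 0.43 and Cyp26b1 at -0.39 and -0.29 are the extremes along the x axis.

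Of the partners that supply electrons, Por and Cyb5a were abundant, Fdx1 (7.06) and Fdxr (7.01) lay closer to the median gene, and none of these 4 was called without the block. Por, the electron donor of the endoplasmic reticulum, had levels of 10.87 ± 0.12 and 10.73 ± 0.20, a log2 fold change of 0.15 (limma adjusted p = 0.348), and was called with the replicate block (adjusted p = 0.0248). No other of the 15 alternatives called Por, and without single samples its log2 fold change ran from 0.055 to 0.20. Cyb5a, encoding cytochrome b5, had a 95% interval of -0.25 to 0.24. The mitochondrial donors Fdx1 and Fdxr had intervals of -0.085 to 0.19 and -0.20 to 0.15. Of the 11 genes listed for electron transfer and haem, limma called 0 higher (2 at an unadjusted p under 0.05) and 2 lower (18.2%), against 10.5% and 5.91% of all genes, with a median log2 fold change of 0.021. Hmox1, the inducible haem oxygenase, had levels of 9.74, 9.69, 9.36 and 9.55 in the pIGrhl2 samples and of 10.68, 10.74, 10.45 and 10.44 in the pcDNA samples. The groups lay far apart, with a log2 fold change of -0.99 (standard error 0.097, limma adjusted p = 0.000248) and differences of -0.996 and -0.987 within the replicate sets. Pgrmc1, a haem-binding protein that associates with P450 enzymes, was also lower (log2 fold change -0.23, limma adjusted p = 0.00896). With the replicate block 3 were higher (27.3%, against 18.2% of all genes), Por, Cyb5r3 and Hmox2, and Hmox1 and Pgrmc1 were lower (13.9% of all genes).

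Of 18 genes listed as regulators of P450 genes, 17 were analysed, and Nr1i3, which encodes CAR, was not. Limma called 3 of the 17 higher (17.6%, against 10.5% of all genes) and 1 lower (5.88%, against 5.91%), with a median log2 fold change of 0.043. The vitamin D receptor gene Vdr had levels of 5.15, 5.24, 5.15 and 4.98 in the pIGrhl2 samples and of 4.71, 4.66, 4.68 and 4.68 in the pcDNA samples. The groups did not overlap, with a log2 fold change of 0.45 (limma adjusted p = 0.000546). Rxra, the shared partner of the vitamin A and D receptors, was higher by 0.21 (adjusted p = 0.0116), and Rarg, a retinoic acid receptor gene, by 0.20 (adjusted p = 0.0332). The Rarg call was kept without pcDNA replicate 4 (adjusted p = 0.0346) and lost without any one of the other 7 samples (adjusted p from 0.0504 to 0.0912). Arnt, the partner of AHR, had levels of 8.31 to 8.45 in the pIGrhl2 samples and of 8.52 to 8.63 in the pcDNA samples. It fell by 0.21 on the log2 scale (limma adjusted p = 0.0162). Ahr itself was at 9.57 ± 0.12 and 9.53 ± 0.087, with a 95% interval of -0.11 to 0.20. Nr1i2, which encodes PXR, had a level of 0.58, whereas Hnf4a was at 11.16 with a 95% interval of -0.14 to 0.14. The bile acid receptor gene Nr1h4 had a log2 fold change of -0.13 (limma adjusted p = 0.111). With the replicate block 5 regulators were higher (29.4%, against 18.2% of all genes), Rara and Nr5a2 being added, and 2 were lower (11.8%, against 13.9%), Tiparp being added.

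**Figure D5:**
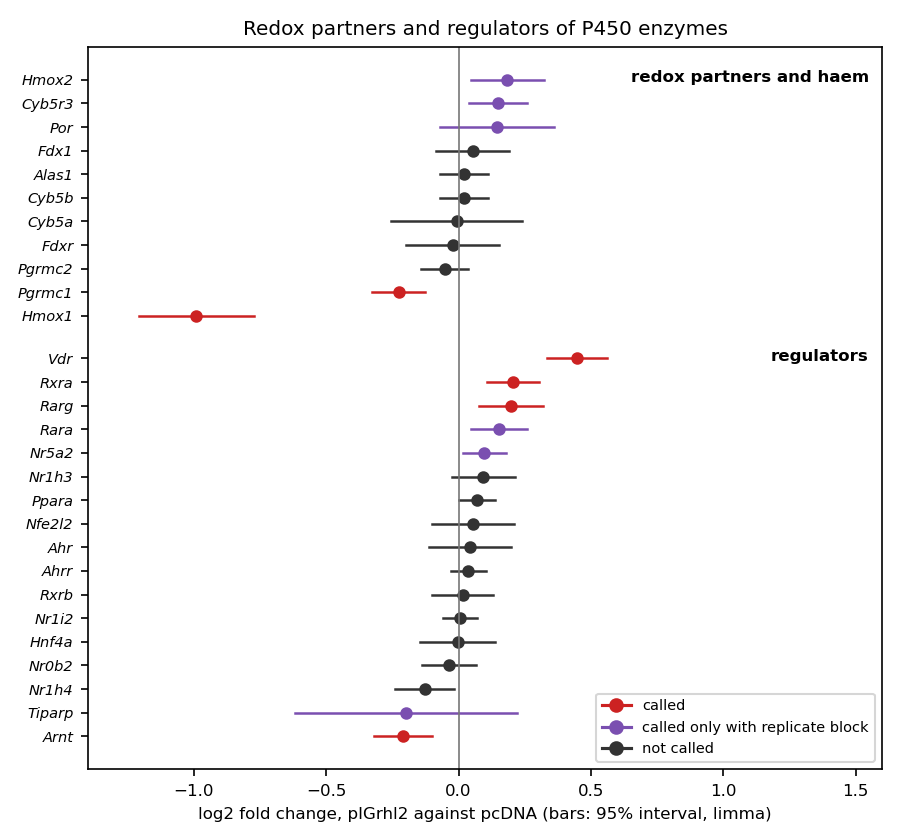
Log2 fold change, pIGrhl2 against pcDNA, of 11 genes for electron transfer and haem and of 17 regulators of cytochrome P450 genes, with 95% intervals from limma as bars. Red marks genes called at an adjusted p under 0.05 and purple those called only with the replicate block; Hmox1 at -0.99 and Vdr at 0.45 lie furthest from 0 on either side.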

How the data were processed

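RNA-seq was performed by the authors on 8 samples of BMEL cells, 4 per group. Per the study's methods, reads were mapped to mm10 with HISAT2, counted on exons with HTSeq without strand, rows under 10 reads in total were dropped, and rlog values of DESeq2 were divided by transcript length. The submitters' processing notes list HISAT2 2.2.1, HTSeq 0.9.1 and DESeq2 1.40.2, and the versions in the methods differ for HISAT2 and DESeq2. The description was taken to hold for BMEL cells, although it opens with public data. Deposited values were read as log2 values, since 7190 of 149368 are negative, whatever the table's name (FPKM). Sample depth is unknown, and the number of samples limits the precision.

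All 18671 genes were fitted with limma 3.58.1 in R 4.3.3 (2 groups, mean-variance trend, Benjamini-Hochberg adjustment, called at an adjusted p under 0.05), after the script was tested on simulated data. Single values were compared by an exact two-sided permutation test. Deviations from the group means correlated between samples of one number (Pearson's r across genes 0.474, 0.565, 0.549 and 0.645). Samples of unlike number in the same replicate set correlated about as much (0.345 to 0.602), so these values show the sets and do not single out pairs. The numbers of the labels were nevertheless taken to pair the samples. The fit with the replicate number as a block is given where it changes a call of a named gene or a count. Transcript lengths and positions came from GENCODE M21 (GRCm38) for all 42 members. Summed marker levels are the log2 of the sum of linear levels. Named members were those called, the 10 with the highest level, and a list of 21 P450 genes, of which 4 were not analysed here. Other members are mentioned to account for all of them. The genes and lists were chosen with earlier results of these data known. Alternatives were the block, a term for the replicate sets (1 and 2 against 3 and 4), an equal upper quartile, an equal sum, a filter on low values, no mean-variance trend, each sample left out, and replicates 3 and 4 averaged. Differences within the replicate sets, and the alternatives for regulators and partners, were added after seeing the data. One listed marker of other cell types is not reported here.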

Additional observations from a re-analysis of the deposited data

Results flagged for a closer look

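In 84 groups of 4 samples (42 P450 genes in 2 groups), 8 groups held a sample that lay far from the other 3 by Dixon's criterion, where chance gives about 4, and 7 of the 8 were at genes near the lower limit. In the pIGrhl2 samples these were Cyp17a1 in replicate 4 (0.204, against 0.163 to 0.164 in the others), Cyp21a1 in replicate 2 (1.99, against 1.91 to 1.92), Cyp2c67 in replicate 1 (-0.218, against -0.278 to -0.277) and Cyp4a10 in replicate 3 (-0.458, against -0.586 to -0.585). In the pcDNA samples these were Cyp11a1 in replicate 1 (-0.229, against -0.369 to -0.367), Cyp26c1 in replicate 2 (0.627, against 0.571 to 0.573) and Cyp4a10 in replicate 3 (-0.574, against -0.586 to -0.584). The exception above the limit was Cyp2c55 in pIGrhl2 replicate 3 (3.29, against 3.33 in the others).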

How the results depend on the processing

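Cyp26a1 was called in all 15 alternatives (adjusted p from 6.33e-05 to 0.00577) and Cyp1a1 in 14 of 15, the exception being replicates 3 and 4 averaged (adjusted p = 0.0680). Against 3 P450 genes called higher, 6 were with the replicate block and with the batch term (14.3%, against 18.2% and 17.5% of all genes), 9 with an equal upper quartile (21.4% against 16.4%), 5 with an equal sum (11.9% against 15.6%) and 1 of 19 with the filter on low values (5.26% against 10.1%). Leaving out samples gave 2 to 3 of 42, against 1326 to 1848 of all 18671 genes. Against 1 called lower, 3 were with the block and with the batch term (7.14%, against 13.9% and 13.3% of all genes) and 0 with replicates 3 and 4 averaged (limma, 2.79% of all genes, and 1 member at an unadjusted p under 0.05). Every fit without a sample called 1 lower, against 690 to 1036 of all 18671 genes. The block changed no other call among the members than those named. Of all calls over the table, 63.9% were higher in the pIGrhl2 samples, and 75.9% with an equal upper quartile and 77.0% with an equal sum, which moved the median log2 fold change to 0.029 and 0.031. Both scalings shift all genes the same way, so differences slightly below 0 turn positive by construction. Among the 23 members followed through the alternatives, the direction turned at ones that were not called: for Cyp27a1 to 0.022 and 0.024 with those scalings and 0.0029 with replicates 3 and 4 averaged, for Cyp2e1 to 0.021, 0.023 and 0.0017, and for Cyp1b1 to -0.00093 with the averaging. Without single samples the values ran from -0.076 to 0.10 for Cyp1b1, -0.011 to 0.0071 for Cyp27a1, -0.0035 to 0.024 for Cyp27b1, -0.15 to 0.060 for Cyp2c68, -0.015 to 0.020 for Cyp2e1, -0.034 to 0.12 for Cyp2s1 and -0.0068 to 0.0099 for Cyp8b1. Of the partners and regulators, Hmox1, Pgrmc1, Vdr and Arnt were called in all 15 alternatives and Rxra in 14. Against 0 of 11 electron transfer and haem genes called higher, the block gave 3, the batch term, the equal upper quartile and the equal sum 2 each, and no mean-variance trend 1. The shares of all genes in these fits were 18.2%, 17.5%, 16.4%, 15.6% and 8.82%. Leaving out samples gave 0 to 2, against 1326 to 1848 of all 18671 genes. In every fit 2 were lower, against 2.79% to 13.9% of all genes. Against 3 of 17 regulators called higher, the block, the batch term and the equal upper quartile gave 5. The shares of all genes there were 18.2%, 17.5% and 16.4%. The averaging gave 1, against 7.11% of all genes, and leaving out samples 2 to 4, against 1326 to 1848 of all 18671 genes. Against 1 lower (5.91% of all genes), the block gave 2 (13.9% of all genes). Uncalled genes that turned were Cyb5a (0.016 and 0.017 with the equal upper quartile and sum, -0.086 to 0.070 without single samples), Fdxr (0.00052 and 0.0021, -0.078 to 0.022), Hnf4a (0.020 and 0.021, -0.036 to 0.040) and, without single samples, Nr1i2 (-0.015 to 0.028). The cause of these changes was not tested. Depth is unknown, and at genes near the lower limit the largest absolute log2 fold change of any gene was 0.24.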

Other observations

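The level of Cyp26a1 relative to Cyp26b1 within a sample, a comparison chosen after the values were seen and given without a test, was 1.28, 1.30, 1.36 and 1.21 in the pIGrhl2 replicates 1 to 4 and 0.27, 0.16, 0.56 and 0.54 in the pcDNA replicates, on the log2 scale. The means differed by 0.91, by 1.08 within replicates 1 and 2 and by 0.74 within replicates 3 and 4. Cyp1a1 relative to Cyp1b1 was between -1.85 and -1.23 in the pIGrhl2 samples and between -1.43 and -1.01 in the pcDNA samples, and these ranges overlapped. Relative to Cyp1a2, a gene near the lower limit, Cyp1a1 was between 3.28 and 3.424 in the pIGrhl2 samples and between 3.563 and 3.715 in the pcDNA samples. Those ranges did not overlap.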
